A study of Homo sapiens with 4 samples.

Results

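The genes described here carry iron into hepatocytes, store it, export it, or set how much of it leaves. They were taken by symbol from a list of 10: transferrin (TF), its receptors TFRC and TFR2, the transporter SLC11A2, the ferritin chains FTH1 and FTL, the exporter SLC40A1, ceruloplasmin (CP), hepcidin (HAMP) and HFE. Of these, 9 were found among the 18806 gene symbols of the table, and CP was not analysed here. RNA was sequenced from Huh7, a human liver cancer cell line, in 4 libraries, 2 for each group, which the study's methods describe as biological replicates. All cells came from a single clone that stably expresses Cas9 and were selected with hygromycin B after lentiviral delivery of a guide RNA. The control group received a non-targeting guide (sgNS, labeled WT), and the other received a METTL16 guide (METTL16 KO, labeled as a knockdown). Which METTL16 guide each library carried is not given in the sources used here.

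Hepatocytes take up iron bound to transferrin through transferrin receptors, and keep what they do not use inside ferritin, a shell of heavy (FTH1) and light (FTL) chains. Ferroportin, encoded by SLC40A1, is the only known exporter of iron from mammalian cells, and hepcidin, a peptide hormone made by hepatocytes, binds it and causes its degradation. Transcription of HAMP is driven by BMP signals through SMAD proteins and by interleukin-6 through STAT3, while iron regulatory proteins bind stem-loops called iron-responsive elements in several of the other mRNAs.

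These elements are shown first because they group the genes by how iron acts on their mRNA. Each 29-base stretch below was read 5′ to 3′ from the canonical transcript of GENCODE release 44 on GRCh38, with the loop CAGTGN in capitals. The motif searched on the transcript strand was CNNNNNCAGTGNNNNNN, with the 5 bases on each side of the loop required to pair (G with T allowed). FTH1, FTL and SLC40A1 held it in the 5′ UTR in exon 1, at chr11:61967574-61967602 (minus strand), chr19:48965335-48965363 (plus strand) and chr2:189580661-189580689 (minus strand). An element at this place lets the regulatory proteins block translation.
FTH1: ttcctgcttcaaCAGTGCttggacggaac
FTL: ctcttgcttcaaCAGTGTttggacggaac
SLC40A1: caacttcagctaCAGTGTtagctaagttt
TFRC held 4 copies in the 3′ UTR in exon 19 (minus strand), at chr3:196050979-196051007, chr3:196050575-196050603, chr3:196050510-196050538 and chr3:196050463-196050491. Elements at this place are known to stabilize the mRNA when the proteins bind.
TFRC copy 1: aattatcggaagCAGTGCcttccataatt
TFRC copy 2: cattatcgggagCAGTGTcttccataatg
TFRC copy 3: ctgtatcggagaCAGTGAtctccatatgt
TFRC copy 4: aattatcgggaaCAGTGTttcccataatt
Over all canonical protein-coding transcripts, the motif was in the 5′ UTR of 19 of 19200 genes (0.099%) and in the 3′ UTR of 121 of 19206 (0.63%). TF had a match in the 3′ UTR of its canonical transcript, in exon 17, in a stretch that begins at base 16198. Its stem pairs only A with T and G with T, and whether it acts as an element was not tested. No match to the motif was found in the UTRs of the canonical transcripts of TFR2, SLC11A2, HAMP or HFE.

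The authors' values are TPM, a unit that is scaled per transcript length and sums to 1000000 in each library, so that levels of different genes can be compared. TPM keeps no read counts, and sequencing depth is therefore unknown. METTL16 was listed at 26.3 and 25.1 TPM in the sgNS libraries and at 17.6 and 18.8 TPM in the METTL16 KO libraries. Its groups do not overlap, and its log2 fold change was -0.50 (standard error, SE, 0.062, limma adjusted p = 2.4e-05). Fold changes are differences in log2(TPM + 0.1), METTL16 KO minus sgNS, for 11971 genes averaging 1 TPM or more, and adjusted p-values are from limma with Benjamini-Hochberg adjustment over all of these genes. Over these genes the median was 0.16 on the log2 scale. Genes with symbols starting with HIST (histones) took 11.0% of the total in each sgNS library but 6.81% and 6.93% in METTL16 KO. Most histone mRNAs lack a poly(A) tail, and the labels name Ribozero RNA where the methods name an mRNA kit, so how the libraries were selected, on which this share depends, is not settled. Each gene was also compared after median-ratio scaling, which sets the median of all genes near 0 (-0.0016). In bulk RNA, a different make-up of the cells and a different RNA level per cell cannot be told apart.

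All 10 hepatocyte markers examined, among them ALB, APOA1, TTR and HNF4A, were above the expression filter, and their summed level was 17896 and 18019 TPM in the sgNS libraries and 32136 and 31721 TPM in the METTL16 KO libraries. Of 10 markers of leukocytes, macrophages, endothelium, stroma, bile duct and red cells, 7 were below the filter with no value above 0.80 TPM, and the sum of the 10 was 9.42 to 14.5 TPM. The hepatocyte markers did not move alike. At an adjusted p under 0.05, 8 were higher, APOB was lower (log2 fold change -0.17) and AHSG was at -0.014 and did not pass. Of all genes tested, 50.1% were higher and 25.6% lower. After median-ratio scaling 7 markers were higher and 2 lower, where 36.4% of all genes were higher and 36.5% lower. AHSG was then among the lower (-0.18), and SERPINA1 (0.0044) did not pass. AFP, a fetal liver protein, went from 1737 and 1793 to 10386 and 10197 TPM and made up more of the rise of the sum than any other marker. The 3 markers of other cell types above the filter were CD68 of macrophages, with a log2 fold change of 1.49 (3.40 and 2.72 to 8.86 and 8.57 TPM), PECAM1 of endothelium, with -0.75, and PDGFRB of stroma, with -0.67. The part of these markers in the results below was not tested.

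Of the 9 genes HAMP changed most, by 14.7-fold, with means of 24.2 ± 2.0 TPM in the sgNS libraries and 355.5 ± 6.9 TPM in the METTL16 KO libraries (SD, n = 2 each). The ferritin heavy chain rose by 62.2% and the light chain by 17.7%, while transferrin itself fell to 0.744 of its sgNS level. The receptors TFRC and TFR2, the exporter SLC40A1 and the transporter SLC11A2 moved by 9.46% to 17.4% in either direction. At an adjusted p under 0.05 in limma, 7 of the 9 genes were higher and 2 were lower, where 50.1% of all genes tested were higher and 25.6% were lower (75.7% in either direction). The groups do not overlap for any of the 9, which is also true of 87.4% of all genes, 56.8% higher and 30.7% lower. With a 2-fold change and an unadjusted p under 0.01, HAMP alone passed, against 7.69% of all genes higher and 3.75% lower. After median-ratio scaling 4 of the 9 were higher (HAMP, FTH1, HFE and FTL) and 2 lower (TF and SLC11A2), where 36.4% of all genes were higher and 36.5% lower. The corresponding shares after quantile normalization were 36.9% and 35.5%.

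**Figure D1:**
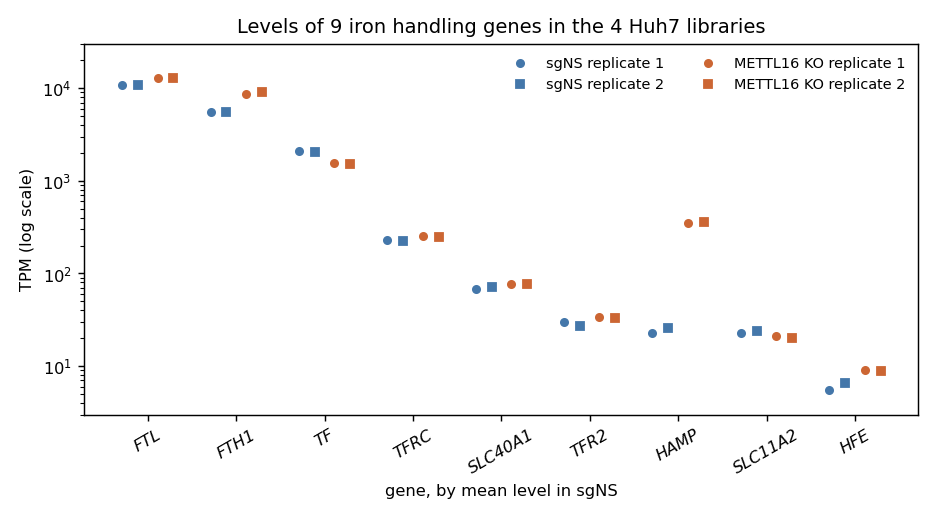
TPM on a log scale (y axis) of the 9 iron handling genes in each of the 4 libraries, ordered by mean level in sgNS; circles are replicate 1 and squares replicate 2. HAMP lies at 22.8 and 25.6 TPM in the sgNS libraries and at 351 and 360.4 TPM in the METTL16 KO libraries, while the means of the other 8 genes in METTL16 KO are 0.744 to 1.62 times those in sgNS.

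**Figure D2:**
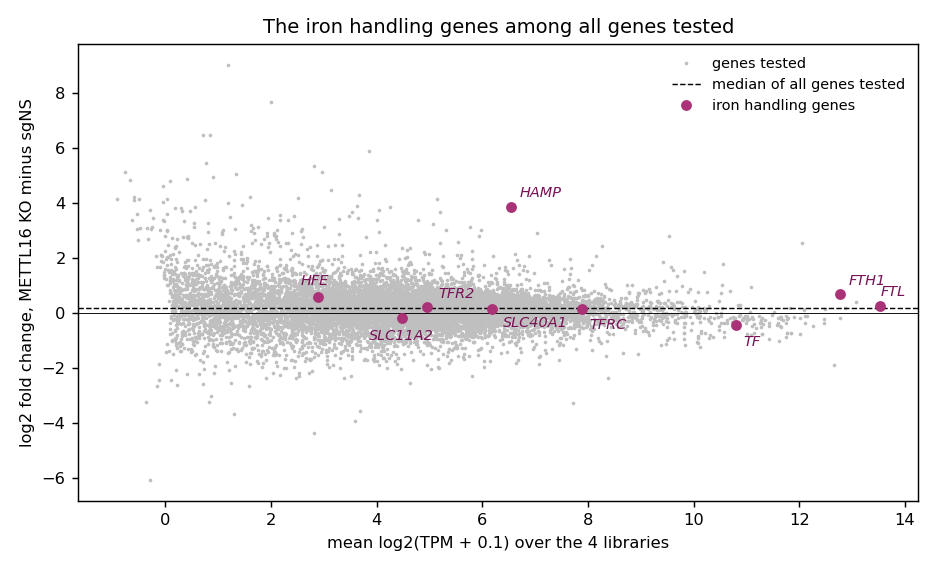
Log2 fold change, METTL16 KO minus sgNS (y axis), against mean log2(TPM + 0.1) (x axis) of the 11971 genes tested, with the 9 iron handling genes in purple. HAMP, at 3.87, stands well above the bulk of genes of its level, and FTH1 and FTL are at the far right, among the most abundant genes.

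HAMP lies on chromosome 19 of GRCh38 from 35280716 to 35285143 (plus strand). It was listed at 22.8 and 25.6 TPM in the sgNS libraries and at 351 and 360.4 TPM in the METTL16 KO libraries. Both METTL16 KO libraries were far above both sgNS libraries, and the replicates of each group lay close together. Its log2 fold change was 3.87 (SE 0.053, 95% interval 3.75 to 3.99, limma adjusted p = 2.1e-12), the 31st highest of the 11971 genes. By level, HAMP went from rank 5993 and 5487 among all genes of the table to rank 415 and 399. After median-ratio scaling the log2 fold change was 3.71.

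The 120 bases before the start of HAMP transcription in RefSeq (GRCh38.p14, chr19:35282408-35282527, plus strand) are shown because this stretch holds letters of the kind that SMAD proteins and STAT3 are known to bind in this promoter. The RefSeq start lies inside the wider GENCODE span given above. The capitals mark matches to GGCGCC, the core of a BMP-responsive element, and to TTCNNNGAA, the form of a STAT site.
HAMP promoter: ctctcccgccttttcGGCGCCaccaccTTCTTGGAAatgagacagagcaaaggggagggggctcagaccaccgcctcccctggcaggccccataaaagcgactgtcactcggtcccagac
The first match spans -105 to -100 and the second -93 to -85, counted from the base before the start as -1. Both motifs read the same on either strand and do not overlap here. Of 35116 RefSeq promoters of 250 bases before the start, 16.4% held GGCGCC, 6.6% held TTCNNNGAA and 0.54% held both. Among the other members, GGCGCC was found in the promoters of TF (3 matches) and TFRC (1 match), and no other held TTCNNNGAA.

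Genes known to act on HAMP were measured, together with the BMP target ID1, as a list of 22, of which 20 passed the filter. In METTL16 KO 12 were higher and 2 were lower at an adjusted p under 0.05, where 50.1% of all genes were higher and 25.6% lower. The list's median log2 fold change was 0.49 against 0.16 for all genes. The 3 largest rises were those of SMAD7, BMP2 and SMAD6. BMP2, a BMP ligand that liver endothelium is known to secrete, went from 67.2 and 69.1 TPM to 191 and 198 TPM, a log2 fold change of 1.51 (limma adjusted p = 1.8e-10). SMAD7 and SMAD6, inhibitors that BMP signals themselves induce, went from 13.3 and 12.8 to 44.28 and 43.98 TPM and from 9.75 and 8.78 to 21.6 and 24.1 TPM. On the log2 scale they rose by 1.75 and 1.29, with limma adjusted p-values of 7.6e-10 and 1.2e-07.
ID1, another transcriptional target of BMP signals, rose from 851 and 825 TPM to 1418 and 1417 TPM, a log2 fold change of 0.76. On the interleukin-6 side, the receptor subunit IL6ST had a log2 fold change of 0.76 and STAT3 of 0.72. IL6R, the subunit that binds interleukin-6, was at -0.13 and did not pass, and after median-ratio scaling it was at -0.29 (limma adjusted p = 0.012). IL6 itself was listed at 0 in 3 libraries and at 0.07 TPM in the METTL16 KO libraries replicate 1. The BMP receptors BMPR1A (-0.11), ACVR1 (-0.081) and BMPR2 (0.043) did not pass either, while the receptor ACVR2A rose by 0.83 on the log2 scale. After median-ratio scaling BMPR1A and ACVR1 were lower (-0.27 and -0.25, limma adjusted p-values of 8.5e-04 and 0.002). The signal carriers SMAD1, SMAD5 and SMAD4 were at 0.90, 0.36 and 0.38. Of the other ligands, BMP4 was at 0.99 and BMP6 was below the filter. In this paragraph, all genes other than SMAD7, BMP2, SMAD6, HJV and ERFE were picked out after their values were seen. Among the genes that fell, hemojuvelin (HJV, listed as HFE2), a BMP co-receptor, went from 20.6 and 20.0 to 15.9 and 18.0 TPM, a log2 fold change of -0.26. Without METTL16 KO replicate 1 the value of HJV was -0.17 and did not pass (limma adjusted p = 0.11). ERFE (listed as FAM132B), a hormone of red cell precursors that lowers hepcidin, was low in all libraries, at 2.09 and 1.90 TPM in the sgNS libraries and 1.32 and 0.95 TPM in the METTL16 KO libraries. TMPRSS6, the protease that cleaves hemojuvelin, had a log2 fold change of 0.34 and did not pass (limma adjusted p = 0.056). With median-ratio scaling, 12 of the 20 were higher and 6 lower, where 36.4% of all genes were higher and 36.5% lower.

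**Figure D3:**
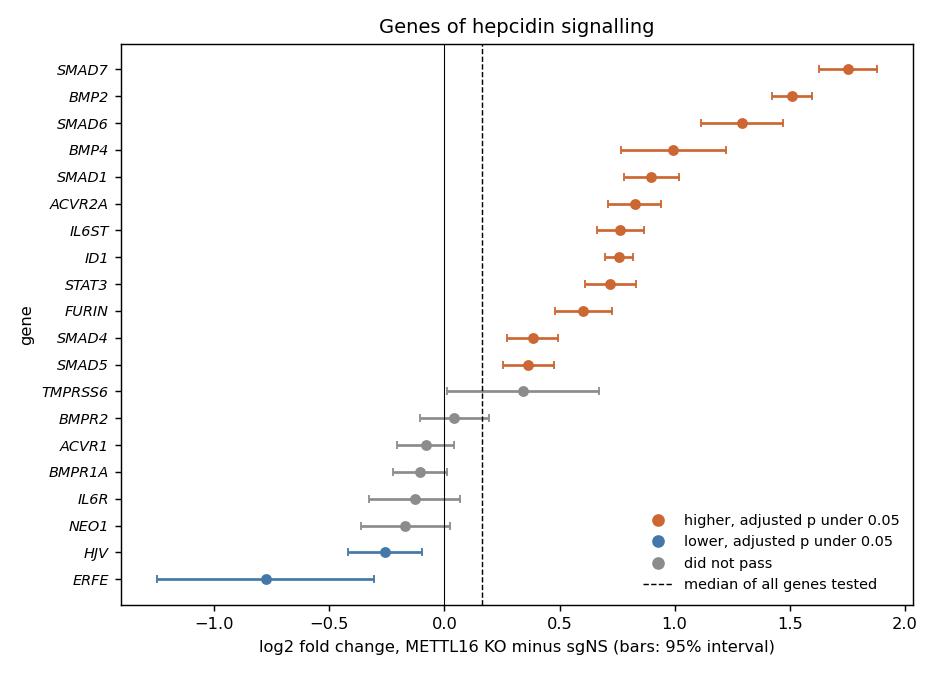
Log2 fold change, METTL16 KO minus sgNS (x axis), with 95% intervals, of the 20 genes of hepcidin signalling that passed the filter (y axis); color marks genes higher, lower or not past an adjusted p of 0.05. SMAD7, BMP2 and SMAD6 are at the top with 1.75, 1.51 and 1.29, and ERFE is at the bottom with -0.78.

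FTL was the second most abundant gene of the table in sgNS and the most abundant in METTL16 KO. FTL lies on chromosome 19 from 48965309 to 48966879 (plus strand) and was listed at 10906 and 10938 TPM in the sgNS libraries and at 12742 and 12968 TPM in the METTL16 KO libraries. FTH1, on chromosome 11 from 61959718 to 61967634 (minus strand), was listed at 5486 and 5478 TPM in the sgNS libraries and at 8662 and 9116 TPM in the METTL16 KO libraries. For both chains the METTL16 KO libraries were above the sgNS libraries, and the gap was much wider for FTH1. The log2 fold change was 0.70 for FTH1 (SE 0.026, limma adjusted p = 2.3e-09) and 0.24 for FTL (SE 0.020, adjusted p of 1.5e-06).
Ferritin chains took 1.64% of all TPM in each sgNS library, and 2.14% and 2.21% in METTL16 KO. The ratio of FTH1 to FTL, which no scaling by a single factor per library can move, was 0.503 and 0.501 in sgNS and 0.680 and 0.703 in METTL16 KO. On the log2 scale the ratio was higher by 0.46 in METTL16 KO, from -0.99 ± 0.0044 to -0.53 ± 0.034 (SD, n = 2 per group). An exact two-sided permutation test gave p = 0.33, the smallest that 2 libraries against 2 allow. After median-ratio scaling the log2 fold change was 0.53 for FTH1 and 0.069 for FTL, both past an adjusted p of 0.05. Processed pseudogenes of the ferritin chains resemble their mRNAs, so that reads could be split between them, and FTH1 overlaps BEST1 on the opposite strand, which was listed at no more than 3.31 TPM.

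The genes that deliver iron to ferritin or take ferritin apart were 6. Of these 5 were tested, with 3 higher and 1 lower, beside 50.1% and 25.6% of all genes. NCOA4, the receptor that carries ferritin to the lysosome, went from 188 and 197 to 240.3 and 236 TPM, a log2 fold change of 0.31. The iron chaperones PCBP1 and PCBP2, which hand iron to ferritin, moved in opposite directions. PCBP1 went from 705 and 711 to 594 and 600.2 TPM (log2 fold change -0.25), and PCBP2 from 365 and 381 to 456 and 465 TPM (log2 fold change 0.30), with limma adjusted p-values of 1.1e-05 and 8.0e-06. TAX1BP1, a receptor of autophagy, had a log2 fold change of 0.45.

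TF, the plasma carrier of iron, lies on chromosome 3 from 133746040 to 133796641 (plus strand). It was listed at 2105 and 2039 TPM in the sgNS libraries and at 1559 and 1523 TPM in the METTL16 KO libraries. Both METTL16 KO libraries were below both sgNS libraries, with a log2 fold change of -0.43 (SE 0.027, limma adjusted p = 1.2e-07). Median-ratio scaling put it at -0.59 and quantile normalization at -0.29. Among the other secreted proteins of the hepatocyte markers, AFP (2.54), FGB (1.84), APOA1 (0.80), TTR (0.74), ALB (0.41) and SERPINA1 (0.17) were higher. APOB was lower (-0.17) and AHSG did not pass (-0.014). SRPRB overlaps TF on the same strand and was listed at 85.1 to 104 TPM.

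TFRC, the receptor that most cells use for transferrin, lies on chromosome 3 from 196012511 to 196082153 (minus strand). Its values were 229 and 225 TPM in the sgNS libraries and 252 and 245 TPM in the METTL16 KO libraries. TFR2, a receptor of hepatocytes that also takes part in iron sensing, lies on chromosome 7 from 100620416 to 100642779 (minus strand), with 29.99 and 27.2 TPM in the sgNS libraries and 34.1 and 33.0 TPM in the METTL16 KO libraries. The groups of each receptor do not overlap, but they lie close together. Log2 fold changes were 0.13 for TFRC (95% interval 0.056 to 0.20, limma adjusted p = 0.0045) and 0.23 for TFR2 (95% interval 0.098 to 0.37, adjusted p of 0.0048), near the 0.16 of the median gene. After median-ratio scaling neither passed. TFRC was then at -0.035 (95% interval -0.11 to 0.038) and TFR2 at 0.067 (95% interval -0.064 to 0.20). Without METTL16 KO replicate 1, neither passed either, with 0.11 for TFRC and 0.21 for TFR2 and limma adjusted p-values of 0.079 and 0.066.
TFRC was listed at 7.63 and 8.26 times the level of TFR2 in sgNS and at 7.37 and 7.42 times in METTL16 KO. The log2 ratio differed by -0.10 between the groups (exact two-sided permutation p = 0.33, the smallest possible), and quantile normalization turned this difference to 0.034. It was -0.16 without sgNS replicate 1 and -0.045 without sgNS replicate 2.

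SLC11A2 (DMT1), which moves ferrous iron out of endosomes, lies on chromosome 12 from 50979401 to 51028566 (minus strand). It was listed at 22.9 and 24.2 TPM in the sgNS libraries and at 21.2 and 20.2 TPM in the METTL16 KO libraries. The METTL16 KO libraries were lower by a small margin, and the log2 fold change was -0.19 (SE 0.061, limma adjusted p = 0.015). This was -0.35 after median-ratio scaling. Without sgNS replicate 2 it was -0.15 and without METTL16 KO replicate 2 also -0.15, and in neither case did it pass (limma adjusted p-values of 0.074 and 0.13). The values are per gene, so forms of the mRNA with and without an iron-responsive element were not separated.

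Of 13 genes for reductases and other routes of iron uptake, 10 were tested, with 5 higher and 1 lower, where 50.1% of all genes were higher and 25.6% lower. After median-ratio scaling 4 were higher and 4 lower, where 36.4% of all genes were higher and 36.5% lower. SLC39A14 (ZIP14), which takes up iron not bound to transferrin, went from 266 and 247 TPM to 388 and 384 TPM, a log2 fold change of 0.59 (limma adjusted p = 1.6e-07). HEPH, a ferroxidase related to ceruloplasmin, was listed at 0.38 and 0.36 TPM in the sgNS libraries and at 4.26 and 4.67 TPM in the METTL16 KO libraries, a log2 fold change of 3.28 on the log2(TPM + 0.1) scale. HEPH passed the filter only through the METTL16 KO libraries, and the size of its fold change depends on the pseudocount, with 2.00 for a pseudocount of 1 and 3.56 for 0.01. MCOLN1, a channel of lysosomes, had a log2 fold change of 0.52, and MELTF, a transferrin-like protein of the cell surface, of -0.46. The metalloreductase STEAP3 reduces iron in endosomes. It was listed at 10.6 TPM in each of the sgNS libraries and at 10.8 and 9.44 TPM in the METTL16 KO libraries. As deposited, STEAP3 did not pass (limma adjusted p = 0.45). It was lower after median-ratio scaling (-0.24, limma adjusted p = 0.025) and after quantile normalization (-0.24, limma adjusted p = 0.027). STEAP3 was picked out after its values were seen.

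SLC40A1, the exporter, lies on chromosome 2 from 189560590 to 189583758 (minus strand). It was listed at 67.4 and 71.1 TPM in the sgNS libraries and at 76.8 and 77.1 TPM in the METTL16 KO libraries. The groups do not overlap, with a log2 fold change of 0.15 (SE 0.044, limma adjusted p = 0.0086). That is the size of the median gene's change, and after median-ratio scaling the value was -0.013 (95% interval -0.11 to 0.087, adjusted p of 0.81). Without METTL16 KO replicate 1 it was 0.16 and without METTL16 KO replicate 2 it was 0.15, with limma adjusted p-values of 0.067 and 0.075. SLC40A1 and FTH1 share the 5′ UTR motif shown above, and their mRNA levels moved unequally. Translation, on which an element at this place acts, was not measured here. The log2 ratio of SLC40A1 to FTH1 was -6.35 and -6.27 in sgNS and -6.82 and -6.89 in METTL16 KO, a difference of -0.54 (exact two-sided permutation p = 0.33, the smallest possible).

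HFE, an MHC class I-like protein that binds transferrin receptors and acts upstream of hepcidin, lies on chromosome 6 from 26087281 to 26098343 (plus strand), inside a cluster of histone genes. It was the lowest of the 9, at 5.49 and 6.58 TPM in the sgNS libraries and at 9.07 and 8.85 TPM in the METTL16 KO libraries. Both METTL16 KO libraries were higher, with a log2 fold change of 0.57 (SE 0.10, limma adjusted p = 4.2e-04), and 0.40 after median-ratio scaling. The histone gene HIST1H2BC overlaps HFE on the opposite strand and was far more abundant, at 2671 and 2944 TPM in the sgNS libraries and 1942 and 1937 TPM in the METTL16 KO libraries, a log2 fold change of -0.53. The library kit keeps strand, but whether the counting used it is not given in the sources used here.

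**Figure D4:**
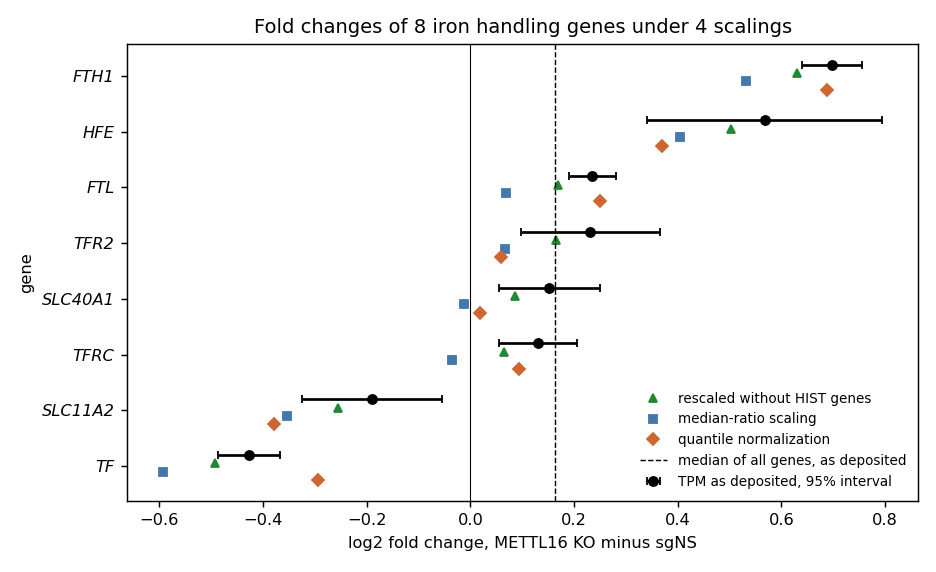
Log2 fold change, METTL16 KO minus sgNS (x axis), of 8 of the genes (y axis; HAMP left out for scale) with TPM as deposited (black, 95% interval), after leaving out HIST genes, after median-ratio scaling and after quantile normalization. FTH1 and HFE stay above 0 and TF and SLC11A2 below 0 in all 4, while TFRC and SLC40A1 cross 0 with median-ratio scaling.

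By level, the 9 genes kept the order FTL, FTH1, TF and TFRC in all 4 libraries. In sgNS these were followed by SLC40A1, then by TFR2, HAMP and SLC11A2, which lay between 22.8 and 29.99 TPM, and HFE was lowest. Within this trio the ranges of HAMP and SLC11A2 overlapped in sgNS. In METTL16 KO, HAMP stood above TFRC, and the order of the other genes was the same.

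The proteins that bind iron-responsive elements were measured with their regulators as a list of 5, all tested, with 1 higher and 2 lower, beside 50.1% and 25.6% of all genes. After median-ratio scaling 1 was higher and 4 were lower, where 36.4% of all genes were higher and 36.5% lower. IREB2 (IRP2) went from 73.9 and 74.0 TPM to 88.3 and 89.3 TPM, a log2 fold change of 0.26, and ACO1 (IRP1) from 50.5 and 51.9 to 43.6 and 40.7 TPM, a log2 fold change of -0.28. Their adjusted p-values from limma were 1.1e-04 and 4.6e-04. FBXL5, the iron-sensing subunit of the ligase that degrades IREB2, went from 48.0 and 50.3 to 43.2 and 43.8 TPM. Its log2 fold change was -0.17, and without METTL16 KO replicate 1 it did not pass (-0.16, limma adjusted p = 0.067).

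Genes for iron use in mitochondria and for iron-sulfur clusters were 20, all tested, with 11 higher, 1 lower and a median of 0.26, beside 50.1% and 25.6% of all genes. Median-ratio scaling gave 7 higher and 4 lower, beside 36.4% and 36.5% of all genes. The ferredoxins FDX1 and FDX2 (listed as FDX1L), which supply electrons, had log2 fold changes of 0.82 and 0.78. The cysteine desulfurase NFS1, which provides the sulfur, was the 1 that fell, from 34.3 and 39.2 to 28.9 and 31.2 TPM (log2 fold change -0.29), and without METTL16 KO replicate 1 it did not pass (-0.23, limma adjusted p = 0.059). ROMO1 overlaps NFS1 on the opposite strand and was listed at 495 to 677 TPM. Of 9 genes for cytosolic iron-sulfur assembly 6 were higher and 0 were lower, with a median of 0.35. The largest was CIAO2B (listed as FAM96B), from 97.9 and 104 to 152 and 168 TPM, a log2 fold change of 0.66 (limma adjusted p = 7.7e-07). CIAO2A (listed as FAM96A) had 0.47 and NUBP1, a scaffold, had 0.44. With median-ratio scaling, 5 of the 9 were higher and 2 lower, beside the same 36.4% and 36.5% of all genes.

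For heme synthesis 7 of 8 genes were tested, with 4 higher and 2 lower, beside 50.1% and 25.6% of all genes. The list's median of 0.16 was that of all genes. PPOX, the enzyme before the last step, changed most, from 16.21 and 17.5 TPM to 4.14 and 4.41 TPM, a log2 fold change of -1.95 (limma adjusted p = 7.8e-09). PPOX overlaps B4GALT3 on the opposite strand, which had a log2 fold change of 0.096. FECH, which inserts the iron, went from 11.3 TPM in both sgNS libraries to 8.92 and 9.50 TPM, a log2 fold change of -0.29, and without METTL16 KO replicate 1 it did not pass (-0.24, limma adjusted p = 0.058). The rises of ALAD (0.26), UROD (0.21) and ALAS1 (0.19) were near the median gene. With median-ratio scaling 0 genes of heme synthesis were higher and 3 were lower in limma, beside 36.4% and 36.5% of all genes. ALAS1, the first enzyme of the pathway, did not pass without METTL16 KO replicate 2 (0.14, limma adjusted p = 0.12).

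Of 12 genes that scavenge, move or break down heme, 10 were tested, with 6 higher and 3 lower and a median of 0.57, where 50.1% of all genes were higher and 25.6% lower. With median-ratio scaling 5 were higher and 4 lower, where 36.4% of all genes were higher and 36.5% lower. Haptoglobin (HP), which binds free hemoglobin, went from 56.0 and 55.9 TPM to 189 and 188 TPM, and hemopexin (HPX), which binds free heme, from 54.4 and 55.0 to 147 and 148 TPM. The log2 differences came to 1.75 and 1.42, with limma adjusted p-values of 4.2e-11 and 2.5e-10. HP is similar in sequence to its neighbor HPR, between which reads could be split, and TXNL4B overlaps HP on the opposite strand. HMOX1, which opens the heme ring and frees its iron, went from 21.4 and 18.5 to 55.3 and 51.5 TPM, a log2 fold change of 1.42. LRP1, the receptor for hemopexin with heme, went from 90.2 and 77.7 to 30.5 and 29.0 TPM, a log2 fold change of -1.49. The biliverdin reductases BLVRA and BLVRB, which act after HMOX1, had -0.84 and -0.58.

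**Figure D5:**
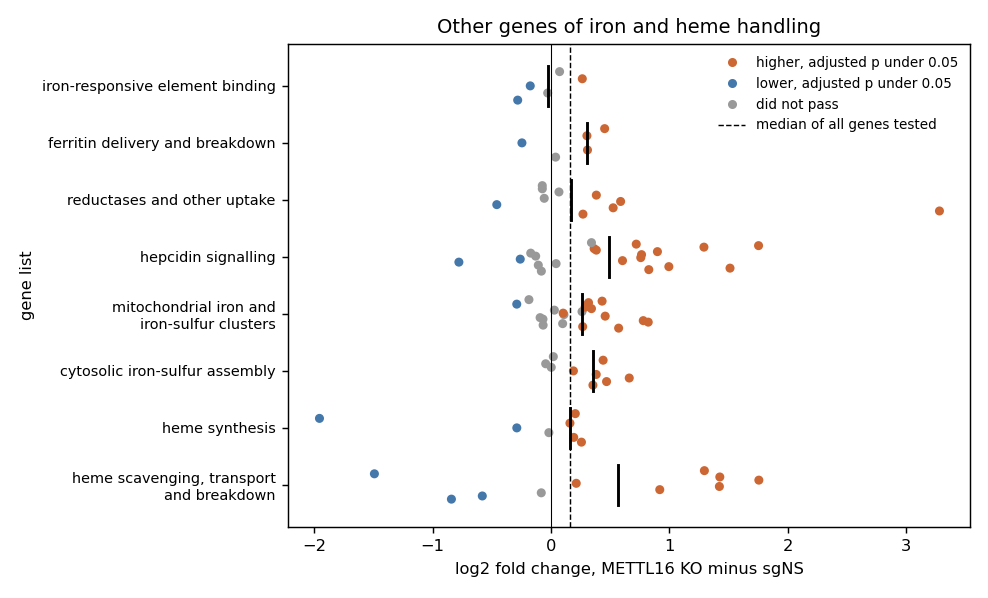
Log2 fold change, METTL16 KO minus sgNS (x axis), of each tested gene in 8 lists of other iron and heme genes (y axis); the black bar is the list's median and the dashed line the median of all genes, 0.16. Hepcidin signalling and the heme scavenging list have medians of 0.49 and 0.57, and PPOX (-1.95) and LRP1 (-1.49) are the lowest points.

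Over all 8 lists, 95 genes were listed, 93 were in the table and 86 were tested, with 48 higher, 12 lower and a median of 0.26. As shares of the genes tested these counts stand beside the 50.1% higher and 25.6% lower of all genes. With median-ratio scaling 37 were higher and 28 lower, where 36.4% of all genes were higher and 36.5% lower. The lists hold genes with many other functions, and nothing particular to iron is drawn from the counts.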

How the data were processed

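RNA-seq of 4 Huh7 libraries was analysed, 2 with sgNS and 2 with METTL16 KO, grouped by their titles. The authors deposited TPM per gene symbol, rounded to 2 decimals, after trimming with Cutadapt, mapping to GRCh38 with STAR and quantification with RSEM. Although RPKM is the unit named in the methods, every library adds up to 1000000. Versions and annotation are not given in the sources used here. TPM keeps no counts, so counting intervals and count tests were not possible, and arms of 2 libraries limit the precision.

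From these values log2(TPM + 0.1) was computed for 11971 genes with a mean of at least 1 TPM and compared with limma 3.58.1 in R 4.3.3 (lmFit, eBayes with trend, no block). P-values are two-sided and were Benjamini-Hochberg adjusted over all genes tested. They rest on the spread between 2 samples per group, moderated for each gene with the spread of all genes, and measure no other spread. The samples are described in the methods as biological replicates. Whether the samples were separate transductions is not given in the sources used here. Intervals are 95% intervals of limma. The model was tested on simulated data. Ratios within a library were compared by exact permutation. Same-numbered replicates were not treated as pairs. Symbols were matched exactly, or for 6 genes through older symbols in reference tables. Positions and motifs are from GENCODE release 44 and RefSeq, both on GRCh38. Members and gene lists were chosen with earlier results of these data known. Named were all members, METTL16, and per list up to 3 genes in each direction with the largest change among those past an adjusted p of 0.05 whose groups do not overlap. A gene that this rule names is withheld and is not reported here. TF was to be compared with CP, which was not analysed here. Alternatives were pseudocounts of 1 and 0.01, other filters, 3 other scalings, a replicate block, limma without trend, a 1.5-fold threshold and each library left out. Tables and figures were made with Python 3.11.15, pandas 2.3.3, numpy 2.4.6 and matplotlib 3.10.9.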

Additional observations from a re-analysis of the deposited data

How the results depend on the processing

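The rises of HAMP, FTH1, FTL and HFE and the falls of TF and METTL16 kept their direction and passed an adjusted p of 0.05 in limma under each of the 13 alternative settings of the model. HAMP ranged from 3.71 to 3.95 on the log2 scale. Calls of the smaller changes depended on scaling. With median-ratio scaling TFRC turned to -0.035, SLC40A1 to -0.013 and TFR2 fell to 0.067, and 4 members were higher, beside 36.4% of all genes. With quantile normalization TFR2 was at 0.060, SLC40A1 at 0.019, the TFRC to TFR2 log2 ratio difference at 0.034 and that of SLC40A1 to FTH1 at -0.67. Without HIST genes TFRC was at 0.064 and SLC40A1 at 0.087, and limma without trend left TFRC at 0.13 with an adjusted p of 0.056. The other iron genes lower numbered 12, which became 28 when scaled by median ratios and 27 after quantile normalization. The shares of all genes lower were 25.6%, 36.5% and 35.5% in the same order. A 1.5-fold threshold added FTH1 to HAMP, for 2 members. Apart from the construction of the scalings, the cause was not tested.

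Leaving out each library in turn, log2 fold changes ranged from 0.11 to 0.15 for TFRC, from 0.16 to 0.30 for TFR2, from 0.11 to 0.19 for SLC40A1 and from -0.23 to -0.15 for SLC11A2, with 1 to 2 members lower and 4 to 7 higher; 1 was lower without sgNS replicate 2 or METTL16 KO replicate 2, and 4 were higher without METTL16 KO replicate 1. The deviations of same-numbered libraries correlated at -0.044, which shows no shared deviation but cannot tell whether these libraries were handled together. With the replicate block HAMP was at 3.87, 7 members were higher and 2 lower, and no member's call changed. For 37 other genes, taken by the naming rule or being ID1, STAT3 or IL6ST, 465 of 478 values kept their call. Of the rest, 13 no longer passed, and 0 changed direction. The remaining genes picked out after their values were seen are not in this count. Among them, IL6R, BMPR1A, ACVR1 and STEAP3 did not pass as deposited but were lower after median-ratio scaling. The ratio of TF to CP could not be computed. Depth is unknown, and how it limits the low values of HFE, HEPH and ERFE cannot be given.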
